A study of Mus musculus with 20 samples.

Results

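Border macrophages are the macrophages at the edges of the brain, in the perivascular spaces, the leptomeninges and the stroma of the choroid plexus. They take up proteins, lipids, haemoglobin and debris through scavenger and lectin receptors, differ from microglia in the genes they express, and include cells that present antigen on MHC class II molecules. The transcripts of 8 genes used as their markers were followed here in the hippocampus: Mrc1, Cd163, Lyve1, F13a1, Ms4a7, Pf4, Cbr2 and Cd209f. They were chosen by name, as the rows of these genes among the 33119 genes of the count table, and all 8 were among the 21724 genes that passed the filter on low counts. Their levels were also related, mouse by mouse, to Cd74, the invariant chain of MHC class II, and to Ttr, transthyretin, the main secreted product of choroid plexus epithelium.

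RNA was sequenced from the hippocampus of 20 mice aged 16 months, 5 in each of 4 groups. The females were S144 to S148 with hAPOE3 and S164 to S168 with hAPOE4, and the males S154 to S158 with hAPOE3 and S174 to S178 with hAPOE4. All mice were targeted replacement animals on a C57BL/6 background and carried human APOE3 or human APOE4 on both chromosomes in place of mouse Apoe, so that every cell type that normally makes apolipoprotein E made the human form and no group had the mouse protein. Each library came from the tissue of 1 mouse, after perfusion with saline. As these are whole-tissue libraries, fewer cells of a type and less RNA per cell cannot be told apart.

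The 8 genes fall into groups by what their proteins do. Mrc1 encodes the mannose receptor, Cd163 the scavenger receptor for haemoglobin bound to haptoglobin, Lyve1 a receptor for hyaluronan that lymphatic endothelium also carries, and Cd209f a C-type lectin of the DC-SIGN family. Ms4a7 encodes a membrane protein that spans the bilayer several times. F13a1 encodes the A subunit of coagulation factor XIII, and Pf4 encodes platelet factor 4, a secreted chemokine that platelets also store. Cbr2 encodes a carbonyl reductase.

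The genes lie on 8 different chromosomes, given here by the GENCODE annotation of GRCm38. Mrc1 spans chr2:14229392-14332057 on the plus strand, with the microRNA gene Mir511 inside it on the same strand. Cd163 spans chr6:124304656-124330527 on the plus strand, Pf4 chr5:90772435-90773383 on the plus strand and Lyve1 chr7:110850607-110863239 on the minus strand. F13a1 spans chr13:36867178-37050244 on the minus strand and is overlapped by 2 antisense genes, so counts of F13a1 could include reads of these if strand was not used. Ms4a7 spans chr19:11321039-11336146, Cbr2 chr11:120729489-120732114 and Cd209f chr8:4102787-4105835, all on the minus strand. Of the 31-base words in the transcripts of Cd209f, 36.3% also occur in those of its neighbour Cd209g, and of those of Cbr2 15.0% occur in Gm11771, so the assignment of reads to these genes is less certain than for Mrc1, Lyve1 and Pf4, which share 0% with any other gene.

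The sequence just before the start is shown for the members whose window lies outside the annotated gene, with and without the letters of a macrophage motif. PU.1 is the transcription factor that macrophages depend on. The 150 bases upstream of the RefSeq start (GRCm38.p6) are written 5′ to 3′ along the gene, and capitals mark the letters GAGGAAG or, on the other strand, CTTCCTC, a common form of the PU.1 motif. The windows are chr13:37050245-37050394 for F13a1 (minus strand), chr5:90772285-90772434 for Pf4 (plus strand), chr6:124304501-124304650 for Cd163 (plus strand) and chr19:11336147-11336296 for Ms4a7 (minus strand).
F13a1: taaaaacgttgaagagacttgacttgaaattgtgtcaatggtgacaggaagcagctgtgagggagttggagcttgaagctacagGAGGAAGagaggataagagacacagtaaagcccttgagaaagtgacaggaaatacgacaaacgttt
Pf4: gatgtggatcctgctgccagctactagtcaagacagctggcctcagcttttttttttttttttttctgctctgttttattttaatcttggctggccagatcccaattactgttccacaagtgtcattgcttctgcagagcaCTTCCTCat
Cd163: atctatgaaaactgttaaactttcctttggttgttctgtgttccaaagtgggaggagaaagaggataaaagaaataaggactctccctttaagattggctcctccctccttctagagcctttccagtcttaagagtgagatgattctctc
Ms4a7: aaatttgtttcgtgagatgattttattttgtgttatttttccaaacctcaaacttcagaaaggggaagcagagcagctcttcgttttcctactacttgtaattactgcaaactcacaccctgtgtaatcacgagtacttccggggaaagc

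In F13a1 the letters begin 66 bases, and in Pf4 9 bases, before the start. In the 250 bases upstream of each RefSeq start these letters occurred on either strand in 4 of the 9 windows of the 7 members with an entry (Mrc1, F13a1, Pf4 and Cbr2), against 10.6% of 32851 windows of all genes. The letters TGCTGAC of the MAF motif, searched on both strands too, occurred in 0 of these 9 windows and in 3.81% of all. These are matches of letters, with no measurement of binding.

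The libraries held between 35778879 and 52520279 counts, and levels are given as CPM, the count relative to the TMM-normalised library size. Ddx3y, on the Y chromosome, reached between 47.2 and 70.7 CPM in males and at most 0.862 CPM in females, so all 20 libraries matched their labelled sex. Xist, at 654 CPM or more in females, was at most 6.80 CPM in hAPOE3 males but up to 28.4 CPM in hAPOE4 males. Markers of hippocampal neurons were present in every library (Wfs1 at 66.1 CPM or more, C1ql2 at 32.6 CPM or more), and markers of neighbouring regions were highest in single mice, with the striatal Six3 at 24.5 CPM in S158 and the thalamic Tcf7l2 at 95.6 CPM in S176, against medians of 1.47 and 6.37 CPM. Ttr ran from 37.3 CPM in S146 to 5906 CPM in S166. In 5 hAPOE3 libraries (S147, S148, S156, S157 and S158) the mean log2 deviation of 21 nuclear genes of oxidative phosphorylation lay between 0.36 and 0.56, against 0.07 or less in the other mice. These 5 stood apart from the rest and none was hAPOE4, so results that rest on them are also given without them, a choice made after the data were seen that leaves 3 hAPOE3 females and 2 hAPOE3 males.

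The border macrophage transcripts were rare in this tissue. Per kilobase of exon, the median level over the 20 mice was highest for Cbr2, at 0.578 CPM per kb, then 0.512 for Pf4, 0.481 for Mrc1, 0.420 for Cd163, 0.317 for F13a1, 0.235 for Lyve1, 0.197 for Cd209f and 0.136 for Ms4a7. The ranges over mice of all neighbours in this order overlapped. On the same scale Cd74 had a median of 2.40 CPM per kb and Ttr of 820 CPM per kb. Before division by length, the counts of Mrc1 ran from 46 to 503 per mouse and those of Pf4 from 5 to 47, so that counting error weighs more on Pf4, Cd209f, Ms4a7 and Lyve1 than on Mrc1, Cd163 and F13a1.

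The spread among mice of one group was wide. The standard deviation of log2 CPM within groups was 0.75 for Mrc1, 0.75 for Cd163, 0.79 for Lyve1, 0.62 for F13a1, 0.85 for Pf4, 0.83 for Cbr2 and 0.80 for Cd209f. These 7 lay between the percentiles 89.0 and 95.8 of all tested genes, and Ms4a7, at 0.51, lay at 81.4. Among genes of similar level (mean log2 CPM within 0.5) the 7 lay between 90.3 and 95.4, and Ms4a7 at 68.3. The share of the variance of log2 CPM that lay between the 4 groups was highest for Mrc1, at 47.2%, and lowest for Ms4a7, at 4.37%.

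**Figure D1:**
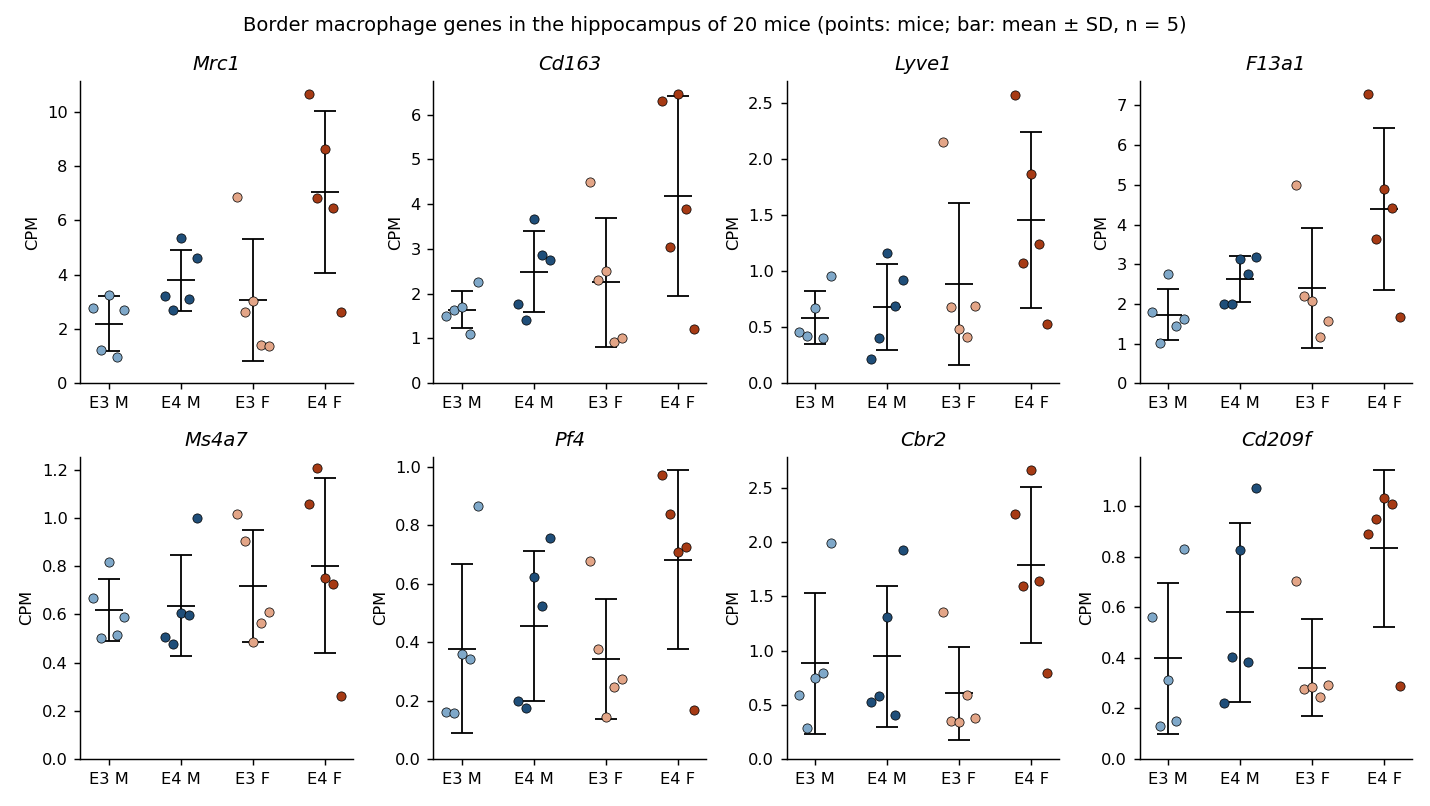
Level of each border macrophage gene in CPM (vertical axis, from 0) in every mouse, by group (E3 and E4 for hAPOE3 and hAPOE4, M and F for males and females). Points are mice and bars the mean ± SD of 5 mice. In most panels 4 of the 5 hAPOE4 females stand above most other mice and the fifth, S168, stands low, while among hAPOE3 females S144 stands highest.

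The effect of APOE4 in females was examined first, since the highest levels of 7 of the 8 genes were found in hAPOE4 females. All 8 genes had a higher fitted level in hAPOE4 than in hAPOE3 females, with a median log2 fold change of 0.94 against 0.00 for all tested genes. With edgeR's quasi-likelihood test, 0 of 8 passed an adjusted p of 0.05, where 0.667% of all tested genes did. At an unadjusted p of 0.05, 5 of 8 were higher (Mrc1, Cd163, F13a1, Cbr2 and Cd209f), against 3.57% of all tested genes, and DESeq2 gave 0 and 5. The genes vary together, so these 5 are not 5 independent observations.

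Among the receptors, Mrc1 read 6.86, 2.62, 3.03, 1.40 and 1.36 CPM in hAPOE3 females S144 to S148 and 10.6, 6.83, 8.64, 6.47 and 2.63 CPM in hAPOE4 females S164 to S168. S144 lay within the range of the hAPOE4 females and S168 within that of the hAPOE3 females, so the groups overlapped. The log2 fold change was 1.21 (SE 0.42, n = 5 and 5), a fold of 2.31 with a 95% interval of 1.25 to 4.25, with an adjusted p of 0.268 by edgeR. Cd163 read 4.49, 2.31, 2.51, 0.931 and 1.01 CPM in the hAPOE3 females and 6.30, 3.04, 6.47, 3.89 and 1.22 CPM in the hAPOE4 females. Here S164 and S166 exceeded every hAPOE3 female, and S168 was below 3 of them. The log2 fold change of Cd163 was 0.90 (SE 0.42, edgeR adjusted p = 0.476). Lyve1 read 2.16, 0.679, 0.485, 0.416 and 0.693 CPM in the hAPOE3 females and 2.58, 1.08, 1.87, 1.24 and 0.526 CPM in the hAPOE4 females. Only S164 passed S144, and the log2 fold change was 0.72 (SE 0.47, edgeR adjusted p = 0.671). Cd209f read 0.703, 0.277, 0.286, 0.245 and 0.294 CPM in the hAPOE3 females and 0.888, 0.948, 1.03, 1.01 and 0.287 CPM in the hAPOE4 females. The levels of Cd209f were split into a high and a low set in each group, with S144 high and S168 low, and its log2 fold change was 1.20 (SE 0.50, edgeR adjusted p = 0.392).

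Of the secreted products, F13a1 read 4.99, 2.19, 2.08, 1.18 and 1.57 CPM in the hAPOE3 females and 7.30, 3.64, 4.90, 4.41 and 1.67 CPM in the hAPOE4 females. S164 alone exceeded S144, and the log2 fold change was 0.87 (SE 0.36, edgeR adjusted p = 0.405). Pf4 read 0.679, 0.377, 0.143, 0.245 and 0.273 CPM in the hAPOE3 females and 0.973, 0.840, 0.709, 0.726 and 0.167 CPM in the hAPOE4 females. Its log2 fold change was 0.98 (SE 0.52, edgeR adjusted p = 0.553), on at most 46 counts per female, and S164 to S167 were above S144. Ppbp, a defining platelet gene, had at most 3 counts in any of the 20 mice, while the summed CPM of the 7 listed platelet genes ran from 3.94 to 5.59 in hAPOE3 and from 3.08 to 5.09 in hAPOE4 females. Of the 5 platelet genes tested, 1 was called for APOE4 in the mean over both sexes, where 2.45% of all tested genes were. It was Gp6, a collagen receptor, and it was lower (log2 fold change -1.72, SE 0.31, edgeR adjusted p = 0.00378), on 1 to 36 counts per mouse. The median log2 fold change of the 5 was -0.27, with Itga2b highest at 0.06.

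The enzyme gene Cbr2 gave the largest fold change of the 8 in females. It read 1.36, 0.352, 0.343, 0.588 and 0.378 CPM in the hAPOE3 females and 2.26, 1.59, 2.66, 1.64 and 0.788 CPM in the hAPOE4 females. Its log2 fold change was 1.56 (SE 0.51), a fold of 2.95 with a 95% interval of 1.41 to 6.19, and the adjusted p was 0.215 by edgeR. In Cbr2, Cd209f and Pf4, 4 of the 5 hAPOE4 females lay above the highest hAPOE3 female, which was S144 in each; 3.70% of all tested genes did so. Ms4a7 had the smallest fold change of the 8. It read between 0.485 and 1.02 CPM in hAPOE3 females and between 0.263 and 1.21 CPM in hAPOE4 females, with a log2 fold change of 0.16 (SE 0.31, 95% interval -0.49 to 0.82, edgeR adjusted p = 0.917).

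Single mice weighed on these results. Without S144, the high hAPOE3 female, Mrc1 passed the threshold (log2 fold change 1.75, edgeR adjusted p = 0.0334). The count became 1 of 8, with 7 of 8 at an unadjusted p of 0.05. The 5 listed red cell genes were also highest of all mice in S144, with Hbb-bs at 132.8 CPM against a median of 9.09 CPM. The bearing of this on its other levels was not tested. Without S168, the low hAPOE4 female, the count stayed at 0 with 6 at an unadjusted p of 0.05, and the median log2 fold change of the 8 was 1.18. The unadjusted count moved down without other mice: from 5 to 2 without S147 or S148, and to 3 without S145, S146, S164 or S166. Without the 5 libraries high in oxidative phosphorylation it was 1, with 0 called and a median log2 fold change of 0.63, and Mrc1 had 0.75 (SE 0.42, edgeR adjusted p = 0.514). Shares of all tested genes were not set beside the counts of these refits, those below or DESeq2. How far the 8 genes moved apart from other genes in them is therefore not shown.

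In males the differences by APOE were smaller and none passed the test. All 8 genes again had a higher fitted level in hAPOE4 mice, with a median log2 fold change of 0.38 against 0.00 for all tested genes, but 0 of 8 passed the adjusted threshold in edgeR (0.621% of all tested genes did), 0 of 8 had an unadjusted p of 0.05, and DESeq2 gave 0 and 0. Mrc1 read 2.79, 1.24, 3.24, 0.982 and 2.70 CPM in hAPOE3 males S154 to S158 and 3.22, 2.68, 5.35, 3.10 and 4.61 CPM in hAPOE4 males S174 to S178. S176 and S178 exceeded every hAPOE3 male, and the log2 fold change was 0.79 (SE 0.43, edgeR adjusted p = 0.575). F13a1 read 1.79, 1.00, 2.76, 1.45 and 1.62 CPM in hAPOE3 males and 2.01, 2.005, 3.14, 2.76 and 3.19 CPM in hAPOE4 males, with a log2 fold change of 0.60 (SE 0.37, edgeR adjusted p = 0.611). For Cd163 the log2 fold change in males was 0.60 and for Cd209f 0.52. Cbr2, the member with the largest fold change in females, read 0.589, 0.290, 0.745, 0.790 and 1.99 CPM in hAPOE3 males and 0.530, 0.576, 1.31, 0.405 and 1.93 CPM in hAPOE4 males, a log2 fold change of 0.08 (SE 0.50). The highest hAPOE3 male in Cbr2, Pf4, Cd209f, Lyve1 and Cd163 was S158, the mouse with the most Six3, and without it the median log2 fold change of the 8 genes in males was 0.69. Without all 5 libraries high in oxidative phosphorylation, 3 of them male, it was 0.81, with 0 called and 0 at an unadjusted p of 0.05 in edgeR.

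**Figure D2:**
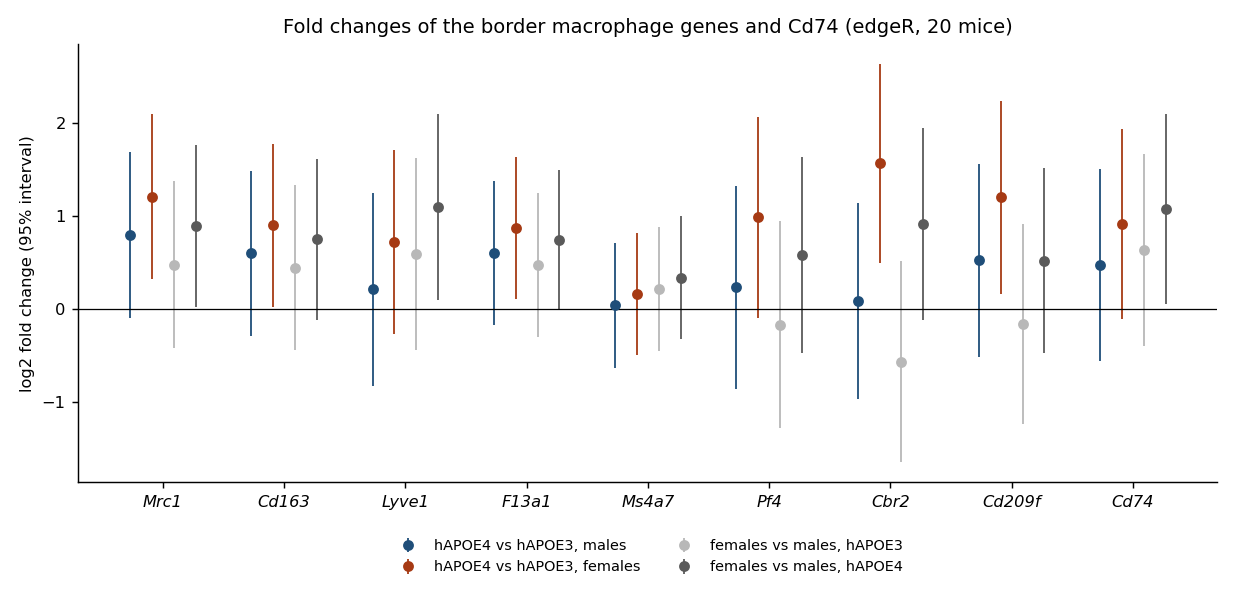
Log2 fold change (vertical axis) of the 8 border macrophage genes and Cd74 in the 4 pairwise comparisons, with 95% intervals from the edgeR fit over 20 mice. The points for hAPOE4 against hAPOE3 in females lie between 0.16 (Ms4a7) and 1.56 (Cbr2), above those in males for each of the 8 genes, and the intervals of the 2 sexes overlap.

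The difference between the sexes in the APOE effect was tested itself, as the interaction of sex and APOE. It passed for 0 of 8 genes in edgeR, with 0 at an unadjusted p of 0.05 (DESeq2 0 and 1), where 0.184% of all tested genes passed. For Cbr2 the interaction was 1.48 on the log2 scale (SE 0.72, unadjusted p = 0.0518 in edgeR, adjusted p = 1.00), and for Mrc1 it was 0.41 (SE 0.60). The larger fold changes in females are thus not shown to differ from those in males. Without the 5 libraries high in oxidative phosphorylation the interaction turned sign in 6 of the 8 genes, to -0.15 for Mrc1, with a median of -0.19 and 0 called or at an unadjusted p of 0.05 in edgeR.

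Averaged over both sexes, the 8 genes were higher in hAPOE4 mice by a median log2 fold change of 0.74, against 0.00 for all tested genes. Again 0 of 8 passed in edgeR, where 2.45% of all tested genes did, and 5 of 8 were higher at an unadjusted p of 0.05, where 8.24% of all tested genes were. Mrc1 came nearest, with a log2 fold change of 1.00 (SE 0.30, 95% interval 0.37 to 1.63) and an adjusted p of 0.0804, followed by F13a1 with 0.73 (SE 0.26, edgeR adjusted p = 0.137). The call of Mrc1 depended on the tool and on single mice: DESeq2 gave an adjusted p of 0.0221, edgeR without S168 gave 0.0496, and edgeR without S144 gave 0.0118, with F13a1 then at 0.0240. Without the 5 libraries high in oxidative phosphorylation Mrc1 had 0.83 (SE 0.33, edgeR adjusted p = 0.240) and 4 of 8 an unadjusted p of 0.05, and with the score of those genes as a covariate, or without S178, 3 of 8 had one, with 0 called each time.

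Females were compared with males in each genotype. Among hAPOE4 mice, all 8 genes had a higher fitted level in females, from 0.34 for Ms4a7 to 1.09 for Lyve1 on the log2 scale; 0 of 8 passed in edgeR (0.437% of all tested genes did) and 2 of 8, Mrc1 and Lyve1, were higher at an unadjusted p of 0.05 (2.35% of all tested genes were; DESeq2 gave 0 and 3). That count of 2 was 0 with limma on the normalised counts, with the choroid plexus or the fibroblast genes as covariate, and without any one of S164, S166, S174, S175 or S177, 1 without S165 or S167, 3 without S176 or S178, and 5 without S168. In Mrc1 and F13a1, S164 to S167 lay above the hAPOE4 males and S168 below them. Among hAPOE3 mice 5 genes were fitted higher and 3, Pf4, Cbr2 and Cd209f, lower in females, between -0.56 for Cbr2 and 0.59 for Lyve1 on the log2 scale; 0 of 8 passed, where 0.0414% of all tested genes did, and 0 had an unadjusted p of 0.05 in edgeR or DESeq2. Averaged over genotypes, 0 of 8 passed (0.129% of all tested genes did) and 3 of 8, Mrc1, Lyve1 and F13a1, were higher in females at an unadjusted p of 0.05 in edgeR (3.79% of all tested genes were; DESeq2 gave 0 and 4). That count of 3 was 0 without S144 or S164 and with the score of oxidative phosphorylation or choroid plexus genes as a covariate, and 1 without S155 or with limma. In hAPOE3 mice the 3 genes lower in females were fitted higher in them once the 5 libraries high in oxidative phosphorylation were left out, with 0 called.

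Other genes of border macrophages were examined from a list of 22, of which 20 passed the filter. In the mean over both sexes 2 of these 20 rose in hAPOE4 mice, where 2.45% of all tested genes were called: Siglec1, the sialic acid receptor sialoadhesin (log2 fold change 0.96, SE 0.24, edgeR adjusted p = 0.0345), and Cd209b, a lectin that binds microbial sugars (1.52, SE 0.38, edgeR adjusted p = 0.0376). Siglec1 reached 1.10 ± 0.622 CPM in females with hAPOE3 and 2.24 ± 0.745 in those with hAPOE4, and 0.694 ± 0.200 and 1.30 ± 0.431 in males with hAPOE3 and hAPOE4 (SD, n = 5 each). Cd209b reached 0.158 ± 0.106, 0.568 ± 0.297, 0.158 ± 0.0746 and 0.381 ± 0.248 CPM in the same order, on between 2 and 43 counts per mouse. Neither Siglec1 nor Cd209b passed within males or within females alone. Whether their calls hold without the 5 hAPOE3 libraries high in oxidative phosphorylation was not tested. All 20 were fitted higher in hAPOE4 mice in both sexes, with median log2 fold changes of 0.40 in males and 0.56 in females. The lowest in each sex was Maf, a transcription factor of macrophages that other brain cells also express (0.00 and 0.10), and the highest were Cd36, a fatty acid and lipoprotein receptor, at 1.28 in males and Cd209b at 1.82 in females.

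Genes shared by macrophages or particular to microglia had median fold changes near 0. Of 10 homeostatic microglia genes, 0 passed in any of the 3 APOE comparisons in edgeR, and 0 had an unadjusted p of 0.05 in either sex. In the mean of both 1 was higher at it, where 8.24% of all tested genes were. The median log2 fold change of these 10 was -0.04 in males and 0.07 in females. Of 10 genes of macrophages in general 0 passed, with medians of 0.01 in males and 0.00 in females. At an unadjusted p of 0.05, 2 were lower in males and 0 in females, and the lowest log2 fold change in males was -0.48, in Fcer1g. In the mean of both sexes 2 were lower at it, with a median of -0.02. The smallest edgeR adjusted p there was 0.0782, and the lowest log2 fold change was -0.36, in Aif1. Of the 21724 tested genes, 1968 in males and 3898 in the mean of both sexes had an unadjusted p of 0.05 in either direction. Of 9 genes for macrophage growth factors and haemoglobin clearance, 0 passed and 0 had an unadjusted p of 0.05 in either sex. The medians were 0.11 in males and 0.12 in females. In the mean of both sexes 2 of these 9 were higher at an unadjusted p of 0.05, where 8.24% of all tested genes were. Their median there was 0.16.

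MHC class II genes were followed because antigen presentation is one function of border macrophages. Cd74 reached 4.36 ± 2.27 CPM in females with hAPOE3 and 8.21 ± 4.05 in those with hAPOE4, and 2.78 ± 2.20 and 3.90 ± 1.89 in males with hAPOE3 and hAPOE4 (SD, n = 5 each). Its log2 fold change for APOE4 was 0.91 in females (SE 0.49, edgeR adjusted p = 0.560) and 0.47 in males (SE 0.49, edgeR adjusted p = 0.762). Of the 11 listed class II genes 0 passed in either sex. At an unadjusted p of 0.05, 3 were higher in females, where 3.57% of all tested genes were. In males 1 was lower at it, Ctss, the protease cathepsin S that microglia express. There 1968 of the 21724 tested genes had such a p in either direction. The highest in females was H2-Ab1, a class II chain, at 1.34, and the lowest Ciita, the regulator of class II transcription, at -0.32.

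Across the 20 mice the 8 genes varied together. All 28 pairs were positively correlated on log2 CPM, with Pearson's r between 0.479 and 0.943 (median 0.752), and all 28 passed an adjusted p of 0.05 in permutation tests with 100000 resamples, for r and for Spearman's rho. The closest pairs were Mrc1 with F13a1 (r = 0.943, rho = 0.940), Mrc1 with Cd163 (r = 0.902, rho = 0.886) and Cd163 with F13a1 (r = 0.892, rho = 0.913). A further pair was Cd209f with Cbr2 (r = 0.849, rho = 0.800), and the loosest was Cbr2 with Ms4a7 (r = 0.479, rho = 0.522, permutation adjusted p = 0.0319). Taken as deviations from the group means, with permutation within groups, all 28 pairs still passed, with a median r of 0.741, so the genes varied together within groups too.

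**Figure D3:**
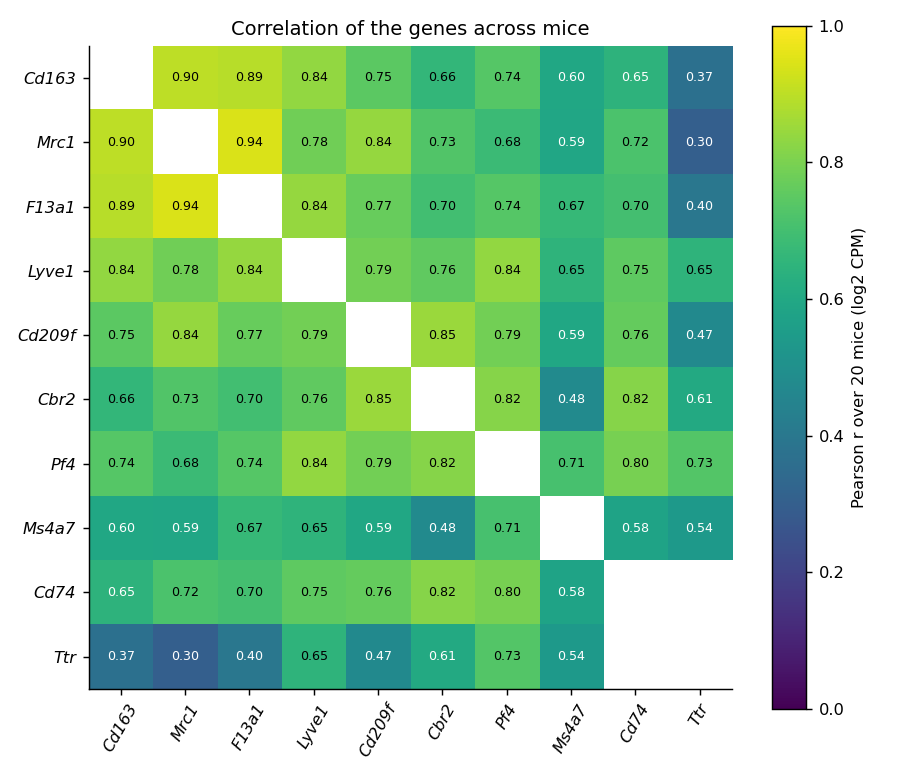
Pearson's r over 20 mice between the log2 CPM of each pair of border macrophage genes, and of each with Cd74 and Ttr (colour from 0 to 1, value printed in the cell). Mrc1, Cd163 and F13a1 form the closest trio, at 0.89 or more, Ms4a7 has the lowest values among the 8, and the row of Ttr is lower than that of Cd74 for each gene.

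The relation to MHC class II was tested with Cd74. All 8 genes were correlated with it across mice, from r = 0.579 (rho = 0.614, permutation adjusted p = 0.0102) for Ms4a7 to r = 0.819 (rho = 0.750, permutation adjusted p = 0.00016) for Cbr2, with a median r of 0.733. The next highest were Pf4 (r = 0.796, rho = 0.805) and Cd209f (r = 0.763, rho = 0.699), and Mrc1 had r = 0.716 and rho = 0.746. The 16 relations with Cd74 and Ttr were adjusted as one family. All 8 passed without the 2 mice farthest from the median of Cd74 (r between 0.510 and 0.762) and as deviations from the group means (r between 0.517 and 0.882), although for rho 7 of 8 passed in the latter.

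The relation to Ttr was lower over 20 mice and depended on which mice were included. Pooled over 20 mice, 5 of 8 genes passed: Pf4 (r = 0.731, rho = 0.764), Lyve1 (r = 0.650, rho = 0.677), Cbr2 (r = 0.606, rho = 0.612), Ms4a7 (r = 0.539, rho = 0.605) and Cd209f (r = 0.474, rho = 0.498), with permutation adjusted p between 0.00155 and 0.0458. F13a1 (r = 0.396, rho = 0.415), Cd163 (r = 0.369, rho = 0.409) and Mrc1 (r = 0.304, rho = 0.395) did not pass. As deviations from the group means, 4 of 8 passed for r and 3 of 8 for rho. Without the 5 libraries high in oxidative phosphorylation, all 8 passed among the other 15 mice for r and for rho, with r between 0.738 and 0.884, and so did all 8 relations with Cd74 (r between 0.650 and 0.965) and all 28 pairs of the genes (r between 0.536 and 0.971). The levels of Ttr left a gap between 115 CPM and 440 CPM, with 8 mice below it and 12 above, which is 26.4% of the range on the log2 scale. Among the 12 mice above the gap 0 of 8 genes passed, with r between -0.016 and 0.249, and among the 8 mice below it 0 of 8 passed in exact permutation tests, with r between 0.083 and 0.773. The relation of Ttr to the 8 genes was therefore not shown within either set of mice, which were split after the data were seen. With Cd74, 7 of 8 genes passed among the 12 mice and 0 of 8 among the 8 mice, and among the genes themselves 25 of 28 and 0 of 28 pairs did.

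Particular mice had high Ttr with low macrophage genes. S147 and S148, hAPOE3 females with 2531 and 3668 CPM of Ttr, had 1.40 and 1.36 CPM of Mrc1, and S157, an hAPOE3 male with 2278 CPM of Ttr, had the lowest Mrc1 of all mice at 0.982 CPM. All 3 are among the 5 libraries high in oxidative phosphorylation. The part of that state in their levels was not tested. S167, an hAPOE4 female, had 440 CPM of Ttr and 6.47 CPM of Mrc1. Cd74 read 5.17 and 4.20 CPM in S147 and S148, both above its median of 4.03 CPM over all mice, although their Mrc1 was low. In S157 it read 2.24 CPM, below that median.

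**Figure D4:**
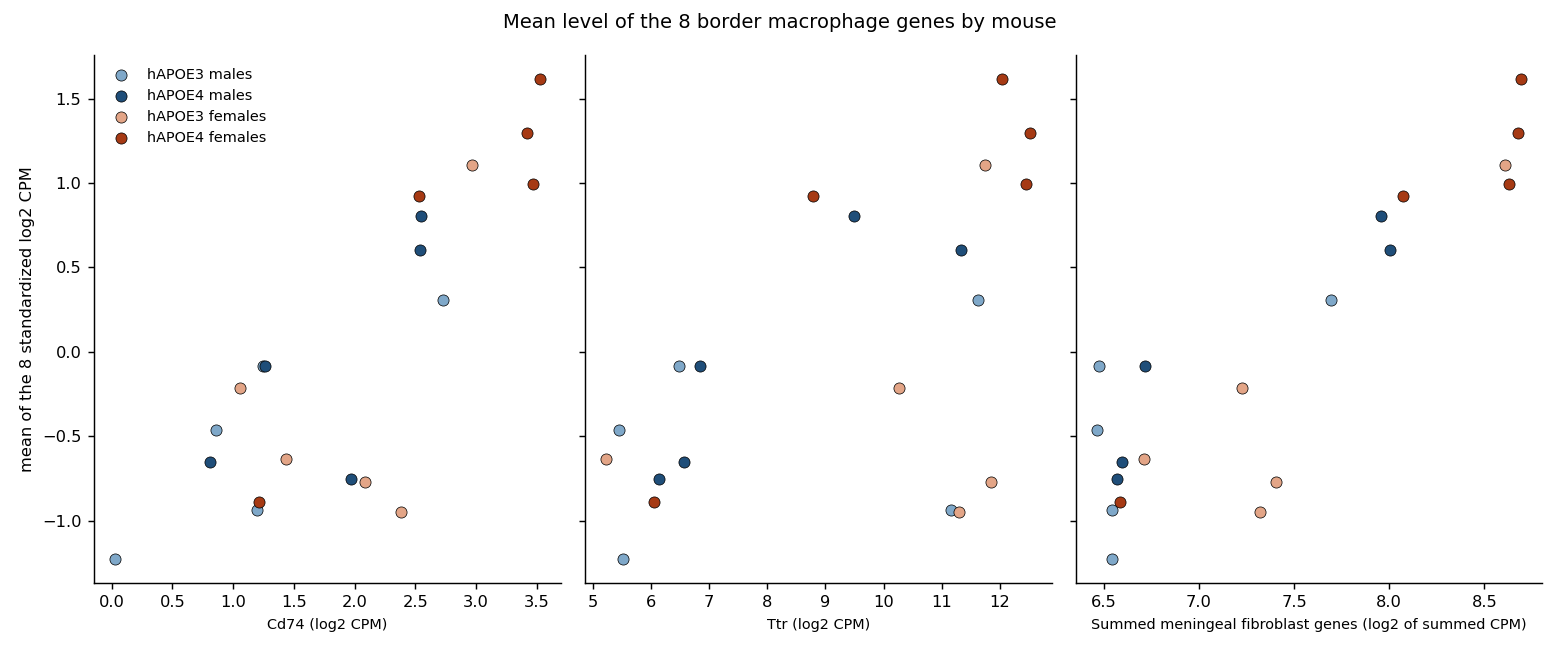
Mean of the 8 standardised log2 CPM of the border macrophage genes (vertical axis) in each of 20 mice, against Cd74 (left), Ttr (middle) and the summed level of 12 meningeal fibroblast genes (right), all on log2 scales. Points are mice, coloured by group. S164, an hAPOE4 female, is highest at 1.62 and S155, an hAPOE3 male, lowest at -1.22. S147, S148 and S157 lie low although their Ttr is high.

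The genes whose levels most resembled the mean of the 8, among 16093 genes with a mean log2 CPM above 0, were ranked by Pearson's r over the 20 mice. The first was Colec12, a scavenger receptor of the collectin family (r = 0.960), followed by the complement gene C2 (0.944), the collagen gene Col1a2 (0.942), Gpr182 (0.940), Slc13a3 (0.937), Itih2 (0.936), Aebp1 (0.936), Slc22a6 (0.934), Col4a6 (0.933) and Efemp1 (0.932), all over the same libraries. For comparison, the median r of all ranked genes was -0.035 and the 95th percentile 0.582.

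Markers of other cells at the borders of the brain varied with the 8 genes. The 12 meningeal fibroblast genes had a median r of 0.855 with the mean of the 8, from 0.572 for Dcn to 0.942 for Col1a2, and the 15 choroid plexus epithelium genes a median of 0.652, from 0.480 to 0.808. The 20 other border macrophage genes had a median of 0.689, the 11 genes of endothelium and mural cells 0.528, and the platelet and red cell genes -0.125 and 0.082. The 11 class II genes were divided, with a median of 0.283. Cd74 had 0.818, H2-Aa 0.804, H2-Eb1 0.772 and H2-Ab1 0.741, while Ciita had -0.071, Ctss -0.157 and H2-DMa, the lowest, -0.357. The summed level of the fibroblast genes ran from 104.8 to 390.8 CPM in females with hAPOE3, 96.1 to 414.1 in those with hAPOE4, 88.2 to 206.8 in males with hAPOE3 and 94.8 to 257.1 in those with hAPOE4. That of the choroid plexus genes ran from 294 to 5929, 296 to 9732, 300.1 to 4054 and 331 to 4427 CPM in the same order. In females the fibroblast sum was highest in S164, S166, S165 and S144, which also had the highest levels of Mrc1 among females, and lowest in S168. All 12 fibroblast genes were fitted higher in hAPOE4 mice in both sexes, with 0 called by edgeR, 0 in males and 5 in females at an unadjusted p of 0.05 (3.57% of all tested genes were higher in females at it), and median log2 fold changes of 0.55 in males and 0.92 in females. Of 15 choroid plexus genes 13 were higher in males and 15 in females, with 0 called, 0 at an unadjusted p of 0.05 and medians of 0.37 and 0.89. Both lists also differed between the sexes, with 0 called. Averaged over genotypes, 11 of 15 choroid plexus and 7 of 12 fibroblast genes were higher in females at an unadjusted p of 0.05 in edgeR. Their median log2 fold changes were 1.502 and 0.808, against 0.437 for the 8 genes. These counts were 7 and 5 among hAPOE4 mice, and 2 and 3 among hAPOE3 mice.

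With the mean log2 level of the fibroblast genes of each mouse as a covariate, an alternative added after the data were seen, the median log2 fold change of the 8 genes for APOE4 fell from 0.94 to 0.22 in females and from 0.38 to -0.06 in males, and that of Mrc1 in females from 1.21 to 0.57 (SE 0.31, edgeR adjusted p = 0.604). With the fibroblast genes, 1 of 8 had an unadjusted p of 0.05 for APOE4 in females and 1 of 8 in the mean over both sexes, with 0 called. With the choroid plexus genes as covariate the medians were 0.77 in females and 0.33 in males, and Mrc1 in females had 1.07 (SE 0.40, edgeR adjusted p = 0.282). The amount of border tissue in each dissection and the state of its cells cannot be told apart in these libraries.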

How the data were processed

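Hippocampal RNA of 20 mice was measured, 5 per group of sex and APOE genotype. The authors aligned polyA libraries to mouse transcripts (Ensembl, GRCm38) using Salmon 0.91 and took gene totals through tximport. The deposited table holds estimated counts, whole numbers without normalization. A second deposited table holds DESeq2 normalized counts, a signal used only for an alternative. All sample columns were matched by name to a mouse.

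Groups were compared with edgeR 4.0.16: filterByExpr, TMM, and the quasi-likelihood test (glmQLFit, glmQLFTest) with a mean for each group, with Benjamini-Hochberg adjustment over 21724 genes and a threshold of 0.05. A standard error is the size of the fold change over the root of F. Relations used log2 CPM (prior count 2). Spread between libraries limits precision more than counting: all 190 pairs differed by more than sampling noise (lowest chi-square per degree of freedom, 9.98). The labels name separate mice, so p-values measure the spread between animals.

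The genes named are the 8 markers, Cd74, Ttr, genes of the marker lists past the threshold, the highest and lowest of a list, and the 10 genes most like the 8 markers. The markers, the lists and the tests were chosen with earlier results of these data known. The genes of the tissue check, Ctss and Hbb-bs were chosen after their values were seen. So were the fits and relations on either side of the Ttr gap and those without 5 libraries above the widest gap in oxidative phosphorylation. Alternatives covered the test (DESeq2 1.42.0, and limma 3.58.1 on the normalized signal), normalization, filter, groups in the fit, covariates and each mouse left out. The fits among them were followed for the 8 markers, Cd74 and Ttr only. The scripts were tested on simulated data.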

Additional observations from a re-analysis of the deposited data

Results flagged for a closer look

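In the 32 groups of 5 mice (8 genes by 4 groups), Dixon's test was run on CPM for a value far from the others. It picked out 7 mice and genes. Chance picks about 1 in 20 groups only where values are normally distributed, which was not tested for these CPM. Log2 CPM were not tested in this way, so the count of 7 holds for CPM only. In hAPOE3 females S144 stood above the other 4 mice in 4 genes: Cbr2 at 1.36 CPM, Cd209f at 0.703 CPM, F13a1 at 4.99 CPM and Lyve1 at 2.16 CPM. In hAPOE4 females S168 stood below the others in Cd209f, at 0.287 CPM. In hAPOE3 males S158 stood above the others in Pf4, at 0.868 CPM, and in hAPOE4 males S178 stood above the others in Ms4a7, at 0.999 CPM. The 8 genes vary together across mice, so the 4 values of S144 are not independent of each other.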

How the results depend on the processing

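The count of 0 of 8 genes called held in all 7 comparisons under the 2 other scalings, no filter, limma and the 3 covariates and in the mice on either side of the Ttr gap, and in the 4 pairwise comparisons fitted on their own 2 groups. DESeq2 called 1 in the mean APOE effect, Mrc1. With each mouse left out in turn the count ran from 0 to 1 for APOE4 in females and from 0 to 2 in the mean APOE effect, the values above 0 being those without S144 or S168, and was 0 elsewhere. In the 8 mice below the Ttr gap the count of relations passed fell to 0 for Cd74, for Ttr and among the 8 genes, and above the gap it was 0 for Ttr; without the 5 libraries high in oxidative phosphorylation (added) it rose to 8 for Ttr. With 1 mouse left out the count was 8 for Cd74 throughout and ran from 4 to 7 for Ttr and from 27 to 28 among the genes. No paired analysis was possible because the labels tie no mouse of one group to a mouse of another (replicates were numbered in accession order).

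With limma on the normalized signal, the log2 fold change turned sign for sex in hAPOE3 Cd209f 0.13, for the interaction Ms4a7 -0.024. With the choroid plexus score as covariate, the log2 fold change turned sign for APOE4 in males Ms4a7 -0.021, for sex in hAPOE3 Lyve1 -0.0058, Ms4a7 -0.080, for sex in hAPOE4 Ms4a7 -0.027, Pf4 -0.18, for the mean sex effect Cbr2 -0.41, Cd209f -0.26, Ms4a7 -0.053, Pf4 -0.45. With the oxidative phosphorylation score as covariate, the log2 fold change turned sign for APOE4 in males Lyve1 -0.018, Ms4a7 -0.060, for sex in hAPOE3 Cd163 -0.087, Mrc1 -0.030. With the meningeal fibroblast score as covariate (added after seeing the data), the log2 fold change turned sign for APOE4 in males Cbr2 -0.38, Lyve1 -0.30, Ms4a7 -0.23, Pf4 -0.21, for APOE4 in females Lyve1 -0.086, Ms4a7 -0.37, Pf4 -0.024, for sex in hAPOE3 Cd163 -0.056, Lyve1 -0.045, Mrc1 -0.068, Ms4a7 -0.075, for sex in hAPOE4 Cd163 -0.13, Cd209f -0.40, Ms4a7 -0.21, Pf4 -0.46, for the interaction Cd163 -0.071, Ms4a7 -0.14, for the mean APOE effect Lyve1 -0.19, Ms4a7 -0.30, Pf4 -0.12, for the mean sex effect Cbr2 -0.51, Cd163 -0.092, Cd209f -0.50, Ms4a7 -0.14, Pf4 -0.55. In the 12 mice above the Ttr gap (added), the log2 fold change turned sign for the interaction F13a1 -0.020, Mrc1 -0.030, Ms4a7 -0.25, for the mean sex effect Cbr2 -0.36, Cd209f -0.17, Pf4 -0.19. In the 8 mice below the Ttr gap (added), the log2 fold change turned sign for APOE4 in males Cbr2 -0.12, Cd209f -0.019, Lyve1 -0.26, Ms4a7 -0.35. Without the 5 libraries high in oxidative phosphorylation (added), with 0 called, it turned sign for APOE4 in females Ms4a7 -0.0020, for sex in hAPOE3 Cbr2 0.66, Cd209f 0.30, Pf4 1.34, for the interaction Cd163 -0.23, F13a1 -0.40, Lyve1 -0.24, Mrc1 -0.15, Ms4a7 -0.11, Pf4 -0.73. Each female group holds 1 mouse below the gap, so only the males, 3 against 3, are given there; in the same fit 4 of the 8 genes turned sign for APOE4 in females, with 0 called. With 1 mouse left out, the range of the log2 fold change crossed 0 for APOE4 in males Cbr2 -0.33 to 0.64, Lyve1 -0.078 to 0.48, Ms4a7 -0.17 to 0.16, Pf4 -0.016 to 0.81, for APOE4 in females Ms4a7 -0.030 to 0.38, for sex in hAPOE3 Cd209f -0.54 to 0.33, Lyve1 -0.045 to 0.86, Mrc1 -0.066 to 0.67, Pf4 -0.56 to 0.41, for the interaction Ms4a7 -0.071 to 0.34, for the mean APOE effect Ms4a7 -0.0050 to 0.21, for the mean sex effect Cbr2 -0.093 to 0.45, Cd209f -0.011 to 0.43. Of the relations, r turned negative below the gap for Lyve1 with Cd74 (-0.228), Ms4a7 with Cd74 (-0.017), Cbr2 with Cd163 (-0.604) and Cbr2 with Ms4a7 (-0.091), and above it for Cd209f with Ttr (-0.016). Apart from fits on fewer mice, the cause of these turns was not tested. Depth limits Pf4, Cd209f, Ms4a7 and Lyve1 most, with as few as 5 counts per mouse.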
